A study of Mus musculus with 10 samples.

Results

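The genes described here are 10 transcripts that ERK signalling is known to switch on: the MAP kinase phosphatase genes Dusp4, Dusp5 and Dusp6, the Sprouty genes Spry1, Spry2 and Spry4, the Spred genes Spred1 and Spred2, and the transcription factor genes Etv5 and Egr1. They were taken by symbol from a table of read counts for 29955 genes, and all 10 were among the 12993 genes with enough reads to be tested. The study took a mouse line of acute lymphoblastic leukaemia with BCR-ABL1 in the p185 form (Ph+ ALL) through rising steps of dasatinib, an inhibitor of ABL and SRC family kinases, or of its solvent DMSO. Total RNA of 10 libraries was sequenced. The parental line was left untreated (libraries A and B). Lines grown out under dasatinib were sampled at the 1x step of the IC90 dose (A, B and C) and at the 16x step (A, B and C), and lines carried along in DMSO gave 1 library at the 1x step and 1 at the 16x step. All groups derive from the same leukaemia line and carry the same fusion kinase. The labels state that cells which had grown out were frozen, rested without drug, or moved to the next dose. Which of these the sequenced cells were, and so whether dasatinib was present when RNA was taken, is not given in the sources used here.

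The ERK pathway runs from RAS through RAF and MEK to the ERK kinases, and BCR-ABL1 is known to feed it. ERK induces its own brakes: dual-specificity phosphatases remove the activating phosphates from ERK, while Sprouty and Spred proteins act upstream, at the level of receptors, RAS and RAF. Etv5 and Egr1 are transcription factors induced by the pathway, and in precursor B-cell leukaemia Dusp6, Spry2 and Etv5 are known as part of this feedback. The transcript levels of these genes are therefore often read as a record of ERK output, although they report RNA only, and ERK phosphorylation was not measured here.

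Promoter sequence was at hand for 7 of the 10 genes (8 start sites), in the RefSeq table of mouse build GRCm38.p6. The counts themselves were made against mm9, so the coordinates below describe the sequences and not the counted reads. The 250 bases before each start were searched on both strands for TGAATG, the core of the site of the repressor Capicua (CIC), which ERK signalling is known to relieve, for the AP-1 site TGACTCA, for the ETS site CCGGAAG, and for the CArG box bound by serum response factor (SRF). The motif TGAATG was present in 3 of the 8 windows, against 10.9% of 32851 windows of all genes, and the CArG box in 1 of the 8 against 1.47%. Neither TGACTCA (4.46% of all windows) nor CCGGAAG (6.91%) had a match in the 8 windows. The 3 promoters with TGAATG are shown 5′ to 3′ along the gene, since they hold the matches for the CIC and SRF motifs. They lie at chr10:99262981-99263230 (plus strand, Dusp6), chr16:22438369-22438618 (minus strand, Etv5) and chr19:53528895-53529108 (plus strand, Dusp5), and capitals mark TGAATG, its reverse complement CATTCA, or a CArG box.
Dusp6: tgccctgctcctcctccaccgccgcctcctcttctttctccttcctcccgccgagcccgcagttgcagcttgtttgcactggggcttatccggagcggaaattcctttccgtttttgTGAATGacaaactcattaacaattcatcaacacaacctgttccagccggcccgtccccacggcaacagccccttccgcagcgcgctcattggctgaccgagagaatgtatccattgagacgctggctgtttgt
Etv5: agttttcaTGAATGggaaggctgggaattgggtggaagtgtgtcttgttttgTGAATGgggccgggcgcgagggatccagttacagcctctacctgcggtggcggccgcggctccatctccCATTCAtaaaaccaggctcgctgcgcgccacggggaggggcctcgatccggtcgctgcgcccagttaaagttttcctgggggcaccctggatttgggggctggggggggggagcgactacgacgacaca
Dusp5: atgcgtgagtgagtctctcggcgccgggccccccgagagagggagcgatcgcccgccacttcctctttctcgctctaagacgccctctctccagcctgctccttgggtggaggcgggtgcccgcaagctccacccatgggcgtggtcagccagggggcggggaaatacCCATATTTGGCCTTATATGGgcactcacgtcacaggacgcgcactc
The Dusp6 match lay 133 to 128 bases before the start. Etv5 held 3 matches, at 242 to 237, 198 to 193 and 129 to 124 bases, and Dusp5 held adjoining CArG boxes at 82 to 73 and 72 to 63 bases. The Dusp5 match to TGAATG, 37 to 32 bases before the start, falls in a stretch that another annotation counts as exon and is not printed. These are letter matches in a sequence and no measure of binding.

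Library totals ran from 29049760 to 45813092 counts, and 18621 genes had at least 1 count. Levels are given as counts-per-million (CPM) on library sizes scaled by the trimmed mean of M-values. Markers of precursor B cells were present in every group. The summed level of 10 such genes lay between 2810 and 3350 CPM, lowest in dasatinib 16x (2810 to 2850). There 5 of the 10 fell against drug-free, where 15.4% of all genes were called (7.39% higher and 8.03% lower). Against DMSO 16x, 2 were higher and 6 lower in dasatinib 16x, beside 34.8% of all genes called. In DMSO 16x against parental 4 rose and 3 fell, beside 30.1% of all genes. The part of these precursor B-cell markers in the results below was not tested. T-cell markers summed to at most 0.0633 CPM, myeloid markers to at most 10.8 CPM and 7 stromal and endothelial markers to between 47.7 and 59.7 CPM. Pecam1, which B-lineage cells also express, made up 46.5 to 59.6 CPM of the latter sum, and Col3a1 and Dcn were at 0 counts in every group. Cdh5, an endothelial marker, was at 1.2 CPM in DMSO 16x and at 0.383 CPM or below in the other libraries, called higher in DMSO 16x against parental (2.51 ± 0.57, adjusted p = 0.00475) and lower in dasatinib 16x against drug-free (-3.87 ± 0.89, adjusted p = 0.0193). The part of these markers in the results was not tested either. The erythroid sum was 4.09 to 4.97 CPM in the parental and dasatinib 1x libraries, 11.7 in DMSO 1x, 34.7 in DMSO 16x and 16.5 to 26.7 in dasatinib 16x. The labels call the dasatinib libraries biological replicates and the parental libraries only replicates. They do not say whether the replicates of a group came from different cultures. The p-values given here therefore cover the spread among these libraries, part of which may be technical. In bulk RNA, fewer cells that express a gene and less RNA per cell cannot be told apart.

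In the lines grown out under dasatinib, the estimated log2 change of the 10 genes against the drug-free libraries was at most 0.38 in size at the 1x step. At the 16x step it was at most 0.35. The 95% intervals reached further, for example -0.18 to 0.95 for Spry4 at 1x and -0.63 to 0.50 for Dusp4 at 16x. The drug-free libraries also differed among themselves, for Spry4 from 10.4 to 24.9 CPM. "Called" means an adjusted p below 0.05 in edgeR's quasi-likelihood test with Benjamini-Hochberg adjustment over all 12993 genes, and rose or fell is used only of called genes. The drug-free class joins both parental and both DMSO libraries. Against it, dasatinib 1x called 0 of the 10 genes, where 1.69% of all genes were called (0.716% higher and 0.977% lower), and 3 of the 10 had an unadjusted p below 0.05. Dasatinib 16x called 2 of 10, Spry1 higher and Spred2 lower, where 15.4% of all genes were called (7.39% higher and 8.03% lower). Between dasatinib 16x and 1x the test called 0 of 10 against 1.9% of all genes (1.06% higher and 0.839% lower), with 1 of 10 at an unadjusted p below 0.05. The counts of called members were thus near those of the background. How many of all genes had an unadjusted p below 0.05 was not counted, so the member counts at that threshold have no background. DESeq2 called 1, 2 and 0 of the 10 in these comparisons, beside 892, 2723 and 794 of the 12993 genes. The median log2 change of the 10 genes was -0.03, -0.07 and -0.06 in the order given, and that of all genes lay between -0.008 and 0.002.

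**Figure D1:**
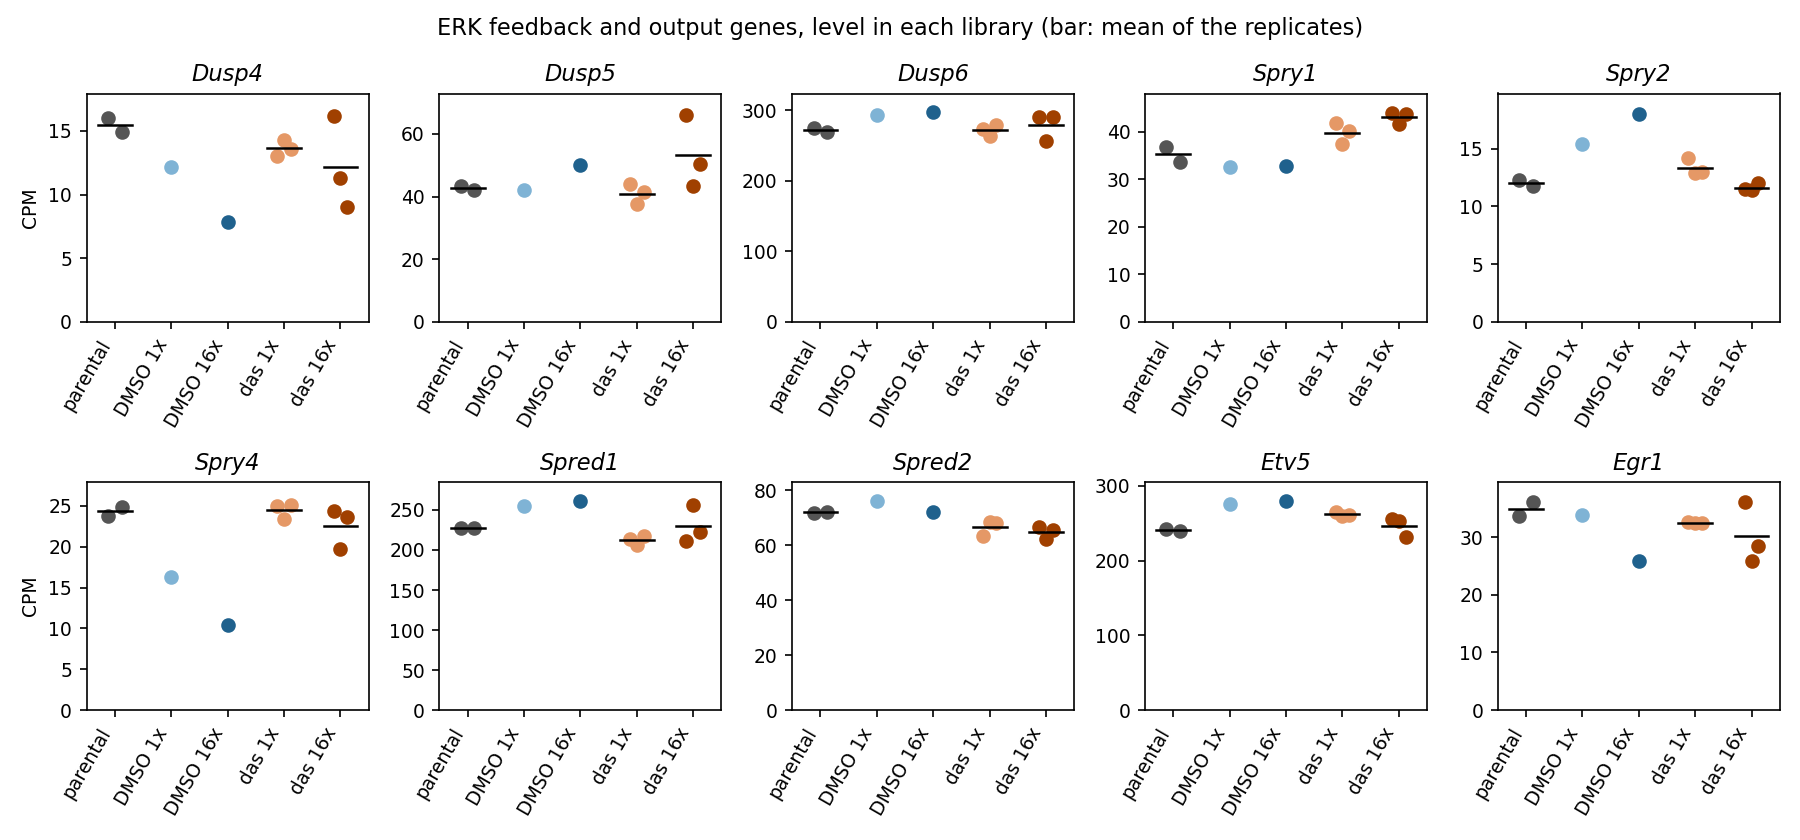
Level of each of the 10 genes in CPM (vertical axis, from 0) in each of the 10 libraries, by group on the horizontal axis (das: dasatinib); points are libraries and bars the means of replicates. Dusp6 stays between 257 and 298 CPM in all libraries, Spry1 is higher in all 3 dasatinib 16x libraries (41.7 to 43.9) than in the 4 drug-free ones (32.6 to 36.7), and Spry4 is lowest in DMSO 16x (10.4).

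Per kilobase of exon, Dusp6 was the most abundant of the 10, at a mean of 89.0 CPM per kb over the libraries (82.1 to 95.2). Etv5 followed at 62.4 (56.4 to 68.3) and Spred1 at 33.9 (30.4 to 38.5), and the ranges of these 3 genes did not touch each other or any other. Dusp5 (18.6 CPM per kb, 15.2 to 26.7) overlapped Spred2 (14.9, 13.5 to 16.5), and Spred2 overlapped Spry1 (13.2, 11.2 to 15.1). The lowest were Egr1 (7.08, 5.78 to 8.06), Spry2 (6.35, 5.47 to 8.62), Dusp4 (4.69, 2.87 to 5.91) and Spry4 (4.55, 2.19 to 5.28). In that last set each gene overlapped the next in order, while the range of Spry4 lay below those of Egr1 and Spry2. Exon lengths came from a GRCm38 annotation, so the order is approximate for reads counted against mm9. Raw counts behind these levels ran from 294 (Dusp4, DMSO 16x) to 13184 (Dusp6).

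Dusp6 encodes the cytoplasmic phosphatase that is specific for ERK, and it was among the steadiest of the 10. Its level was 275 and 269 CPM in the parental libraries, 294 in DMSO 1x, 298 in DMSO 16x, 273, 263 and 280 in dasatinib 1x, and 290, 257 and 290 in dasatinib 16x. The highest libraries were those of the DMSO lines, the lowest was dasatinib 16x B, and the dasatinib and drug-free libraries overlapped. The log2 change against drug-free was -0.06 at 1x (95% interval -0.18 to 0.06, adjusted p = 0.537) and -0.03 at 16x (-0.15 to 0.09, adjusted p = 0.794). In DMSO 16x against parental it was 0.13 ± 0.07 and not called (adjusted p = 0.173), but called without dasatinib 16x B (0.0221). Its highest library exceeded its lowest by 1.16-fold, a log2 range of 0.21, where genes of similar level had a median range of 0.25.

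Dusp5, the nuclear ERK phosphatase, measured 43.3 and 42.0 CPM in the parental line, 42.0 in DMSO 1x, 50.1 in DMSO 16x, 44.0, 37.5 and 41.4 in dasatinib 1x, and 66.1, 43.4 and 50.3 in dasatinib 16x. Dasatinib 16x A stood above all other libraries, and the remaining dasatinib 16x libraries overlapped the drug-free ones. Dasatinib 16x against 1x gave a log2 change of 0.38 ± 0.14 (SE) that was not called (adjusted p = 0.233, unadjusted p = 0.0243), and it was 0.19 without dasatinib 16x A. Among the 1985 genes of similar level, its log2 range of 0.82 stood at percentile 91.8.

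Dusp4 encodes a nuclear phosphatase of ERK and of the stress kinases. Its level was 16.0 and 14.9 CPM in the parental libraries, 12.2 in DMSO 1x, 7.87 in DMSO 16x, 13, 14.3 and 13.6 in dasatinib 1x, and 16.2, 11.3 and 9.05 in dasatinib 16x. DMSO 16x was the lowest library, and the dasatinib 16x libraries spread across nearly the whole range of the rest. In DMSO 16x against parental Dusp4 fell by 0.97 ± 0.31 (SE) on the log2 scale (adjusted p = 0.0489). That call held under 9 of 16 other settings. It was lost on leaving out parental A (adjusted p = 0.133), parental B (0.106), dasatinib 1x A (0.0754), B (0.0754) or C (0.0777), or dasatinib 16x B (0.0837). Against drug-free, the log2 change of Dusp4 was 0.10 at dasatinib 1x (95% interval -0.46 to 0.66) and -0.06 at 16x (-0.63 to 0.50). Dasatinib 16x against DMSO 16x gave 0.63 ± 0.29 (adjusted p = 0.139), called without dasatinib 16x C (0.00882) and by DESeq2 (0.0382).

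Spry1, a Sprouty gene whose product restrains receptor signalling to RAS, rose at dasatinib 16x. The level was 36.7 and 33.7 CPM in the parental libraries, 32.6 in DMSO 1x and 32.8 in DMSO 16x, against 41.9, 37.3 and 40.2 in dasatinib 1x and 43.9, 41.7 and 43.7 in dasatinib 16x. All 6 dasatinib libraries were above all 4 drug-free ones. At 16x the mean was 43.1 ± 1.24 CPM (SD, n = 3) against 33.9 ± 1.88 (n = 4), a log2 change of 0.35 ± 0.06 (SE, 95% interval 0.22 to 0.47, adjusted p = 0.00437). The call held under all 21 other settings, among them the parental libraries alone as reference (0.29, adjusted p = 0.00402).
At 1x the mean was 39.8 ± 2.31 CPM and the log2 change 0.23 ± 0.06, which was not called (adjusted p = 0.0747). It was called in 3 of 21 other settings, namely DESeq2 (adjusted p = 0.0102), the mean of the DMSO lines as reference (0.00332), and without parental A (0.0494). Between dasatinib 16x and 1x the log2 change was 0.11 (95% interval -0.02 to 0.25, adjusted p = 0.406). Spry1 lies on chromosome 3, where the 30 nearest tested genes had a median log2 change of 0.02 at 16x against drug-free.

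Spry2, the Sprouty gene of the leukaemia feedback described above, differed mainly in the DMSO lines. Its level was 12.3 and 11.8 CPM in the parental libraries, 15.4 in DMSO 1x and 18 in DMSO 16x, 14.2, 12.9 and 13 in dasatinib 1x, and 11.5, 11.4 and 12 in dasatinib 16x. Both DMSO libraries were above all others, and the dasatinib 16x libraries lay within or below the parental range. Spry2 rose in DMSO 16x against parental by 0.58 ± 0.11 on the log2 scale (adjusted p = 0.00132) and was lower in dasatinib 16x than in DMSO 16x by a log2 change of -0.63 ± 0.10 (adjusted p = 0.000343). Both calls held under all 16 other settings. These comparisons share the same single DMSO 16x library, so 1 library sets both. Against the parental libraries alone, dasatinib 16x gave a log2 change of -0.05 (adjusted p = 0.711).

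Spry4, another Sprouty gene, varied the most of the 10 across libraries, by 2.41-fold between the highest and the lowest. The level was 23.7 and 24.9 CPM in the parental libraries, 16.3 in DMSO 1x, 10.4 in DMSO 16x, 25, 23.4 and 25.1 in dasatinib 1x, and 24.3, 19.7 and 23.6 in dasatinib 16x. The DMSO libraries lay below all others, and DMSO 16x below DMSO 1x. Against parental, Spry4 fell by 0.58 ± 0.12 on the log2 scale in DMSO 1x (adjusted p = 0.0148) and by 1.22 ± 0.13 in DMSO 16x (adjusted p = 1.25e-05). The DMSO 1x call was lost on leaving out parental A (adjusted p = 0.0731) or parental B (0.12). The DMSO 16x call held under all 15 other settings.
Against the DMSO library of the same step, Spry4 was higher by 0.59 ± 0.11 in dasatinib 1x (adjusted p = 0.00445) and by 1.11 ± 0.12 in dasatinib 16x (adjusted p = 1.3e-05), both under all 15 other settings. Against the parental libraries alone the log2 change was 0.01 at dasatinib 1x (adjusted p = 0.965) and -0.11 at 16x (adjusted p = 0.386).

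Spry4 and Egr1 lie on chromosome 18, which was lower as a whole in the DMSO lines. Over its 316 tested genes the median log2 change against parental was -0.18 in DMSO 1x and -0.52 in DMSO 16x (quartiles -0.76 and -0.36), with 88.3% of genes below 0 in DMSO 16x. The other chromosomes had a median of 0.01 there, although chromosome 5, which holds none of the 10 genes, also stood at -0.47. Of the 316 genes, 49 had a lower log2 change than Spry4, and the 30 tested genes nearest to it had a median of -0.51 (quartiles -0.75 and -0.30). The value of Spry4, -1.22, was thus below the lower quartile of its neighbours. Egr1, at -0.43, was close to the median of its own 30 neighbours, -0.52. For dasatinib against the DMSO library of the same step, the median of chromosome 18 was 0.18 at 1x and 0.51 at 16x. The 30 neighbours of Spry4 had medians of 0.25 and 0.59 in these comparisons, where Spry4 was at 0.59 and 1.11. The part that the shift of the chromosome had in the values of either gene was not tested.

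**Figure D2:**
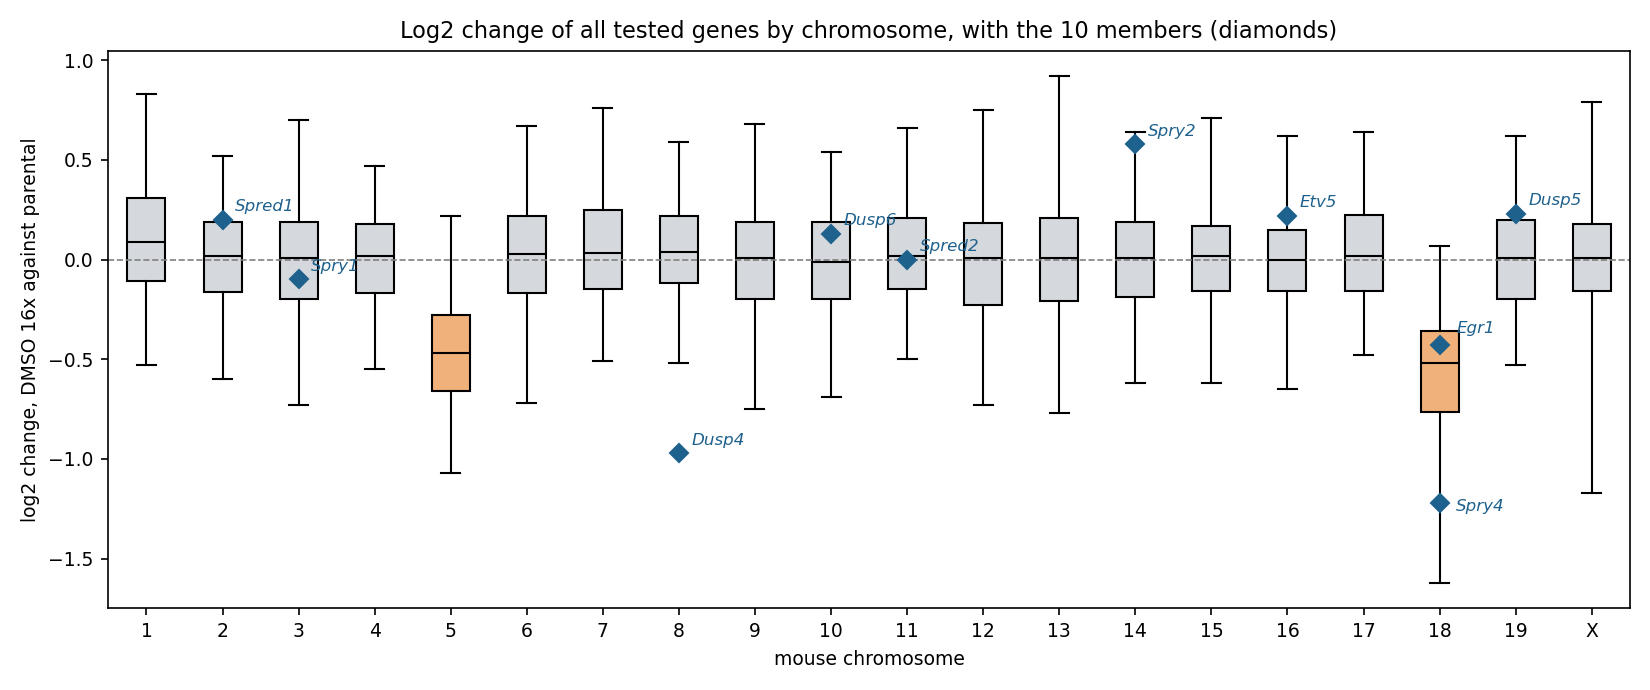
Log2 change of tested genes in DMSO 16x against parental (vertical axis) by mouse chromosome (horizontal axis); boxes span the quartiles with the median as a line, whiskers the 10th to 90th percentiles, and diamonds the 10 genes. Chromosomes 5 and 18 (orange) have medians of -0.47 and -0.52, and Spry4 (-1.22) lies below the box of chromosome 18 while Egr1 (-0.43) lies inside it.

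Spred2 fell at dasatinib 16x, by a small amount. Spred proteins bring the RAS inhibitor neurofibromin to the membrane. The level of Spred2 was 71.7 and 72.3 CPM in the parental libraries, 76.2 in DMSO 1x, 72.0 in DMSO 16x, 63.5, 68.6 and 68.1 in dasatinib 1x, and 66.8, 62.2 and 65.4 in dasatinib 16x. All 6 dasatinib libraries were below all 4 drug-free ones. At 16x the mean was 64.8 ± 2.35 CPM (SD, n = 3) against 73.1 ± 2.14 (n = 4), a log2 change of -0.17 ± 0.04 (SE, adjusted p = 0.0243).
The call of Spred2 was lost in 5 of 21 other settings: on leaving out DMSO 1x (adjusted p = 0.0611), dasatinib 16x B (0.0819) or dasatinib 16x C (0.0693), with only the libraries of the compared classes (0.0534), and with a replicate block (0.125). Against the parental libraries alone it was -0.15 (adjusted p = 0.0317). At 1x the log2 change was -0.13 (95% interval -0.23 to -0.04, adjusted p = 0.153), not called, and that of Spred2 between dasatinib 1x and DMSO 1x was -0.19 ± 0.06 (adjusted p = 0.0497), a call that held under only 6 of 16 other settings. It was lost without dasatinib 1x A (adjusted p = 0.131), B (0.0511) or C (0.0786), on leaving out dasatinib 16x C (0.0537), and also without either parental library (0.0891 without A and 0.0914 without B). Spred2 in dasatinib 16x against DMSO 16x was -0.15 ± 0.06 (adjusted p = 0.0639), called without dasatinib 16x A (0.0328).

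Spred1, the more abundant Spred gene, measured 228 CPM in both parental libraries, 255 in DMSO 1x, 261 in DMSO 16x, 214, 206 and 217 in dasatinib 1x, and 211, 256 and 222 in dasatinib 16x. The dasatinib 1x libraries were below all 4 drug-free ones, while dasatinib 16x B reached the level of the DMSO lines. The log2 change against drug-free was -0.19 ± 0.07 at 1x (adjusted p = 0.192) and -0.08 at 16x (95% interval -0.24 to 0.08), neither of them called. At 1x against DMSO 1x it was -0.26 ± 0.09 (adjusted p = 0.0915), and it was called without dasatinib 16x A (adjusted p = 0.015), without dasatinib 16x B (0.000683) and by DESeq2 (0.00855). Leaving out dasatinib 16x B also made calls of Spred1 in DMSO 1x against parental (0.16, adjusted p = 0.371, becoming 0.0284), in DMSO 16x against parental (0.20, 0.155 becoming 0.0027) and in dasatinib 16x against DMSO 16x (-0.19, 0.143 becoming 0.000261). The DMSO 16x value was called without dasatinib 16x A as well (0.0406), and DESeq2 called the dasatinib 16x value (0.0458).

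Etv5, an ETS-family activator that the repressor CIC holds down, measured 242 and 240 CPM in the parental libraries, 275 in DMSO 1x, 280 in DMSO 16x, 265, 259 and 261 in dasatinib 1x, and 255, 253 and 231 in dasatinib 16x. The DMSO libraries were the highest, and dasatinib 1x lay between them and the parental line. Against drug-free the log2 change was 0.01 at 1x (95% interval -0.13 to 0.15) and -0.07 at 16x (-0.21 to 0.06). Etv5 rose in DMSO 16x against parental by 0.22 ± 0.05 (adjusted p = 0.00924), a call lost without parental B (0.058) and kept in the other 15 settings. It was lower in dasatinib 16x than in DMSO 16x by a log2 change of -0.18 ± 0.05 (adjusted p = 0.0135), under all 16 other settings. In DMSO 1x against parental it was 0.19 ± 0.05 and not called (adjusted p = 0.065), but called in 5 of 16 other settings, among them without dasatinib 16x A (0.0218), B (0.0293) or C (0.0158).

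Egr1, an immediate early zinc finger gene that is also induced by handling of cells, measured 33.6 and 36.1 CPM in the parental libraries, 33.8 in DMSO 1x, 25.9 in DMSO 16x, 32.6, 32.4 and 32.5 in dasatinib 1x, and 36.1, 25.9 and 28.5 in dasatinib 16x. The dasatinib 1x libraries lay within 32.4 to 32.6 CPM, and the dasatinib 16x libraries spanned the whole range of the other groups. Against drug-free its log2 change was 0.01 at 1x (95% interval -0.28 to 0.30) and -0.10 at 16x (-0.39 to 0.19). In DMSO 16x against parental it was -0.43 ± 0.17 and not called (adjusted p = 0.0888). It was called without dasatinib 16x A (0.000767) or B (0.0199) and by DESeq2 (0.0323). The summed level of 9 handling-induced genes was 194 to 202 CPM in the parental libraries, 212 in DMSO 1x, 225 in DMSO 16x, 216 to 222 in dasatinib 1x and 218 to 239 in dasatinib 16x. Their part in the Egr1 levels was not tested.

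**Figure D3:**
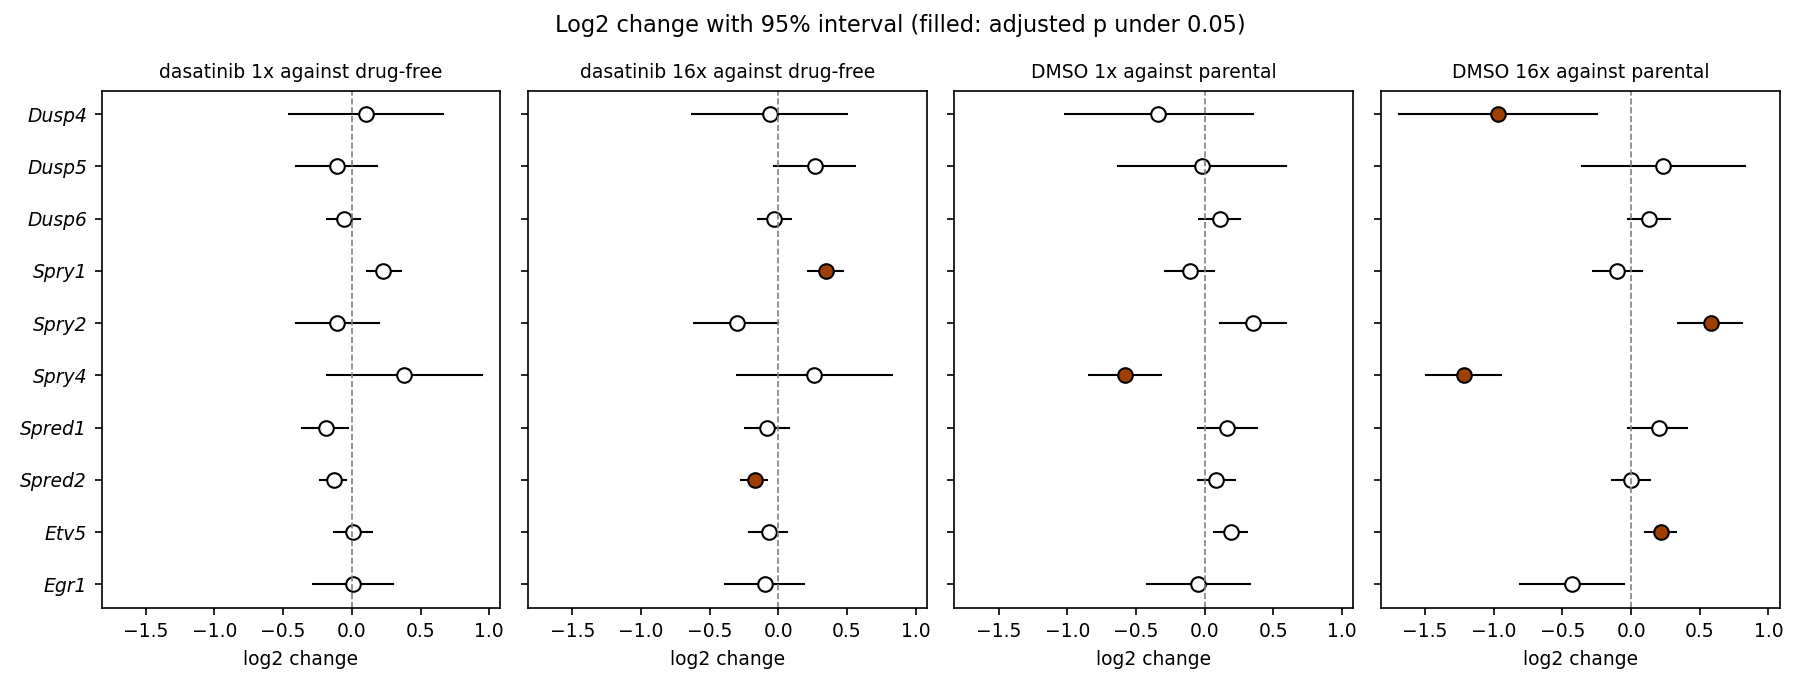
Log2 change (horizontal axis) of the 10 genes (vertical axis) in 4 comparisons, with 95% intervals as lines; filled points are called at an adjusted p below 0.05. Only Spry1 (0.35) and Spred2 (-0.17) are filled for dasatinib 16x against drug-free and none for 1x, while Spry4 (-1.22), Dusp4 (-0.97), Spry2 (0.58) and Etv5 (0.22) are filled for DMSO 16x against parental.

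The lines carried in DMSO were themselves compared with the parental line, and each dasatinib step with the DMSO library of that step. A DMSO group is 1 library, so its spread was taken from the other groups. DMSO 1x against parental called 1 of 10, Spry4, where 6.06% of all genes were called (3.29% higher and 2.77% lower). DMSO 16x against parental called 4 of 10, Spry2 and Etv5 higher and Dusp4 and Spry4 lower, where 30.1% of all genes were called (14.6% higher and 15.5% lower). Without parental B fewer of the 10 were called there, and fewer of all genes as well. Dasatinib 1x against DMSO 1x called 3 of 10, Spry1 and Spry4 higher and Spred2 lower, against 13.6% of all genes (6.65% higher and 6.99% lower). Of these, Spry1, at 0.29 ± 0.08 (adjusted p = 0.0298), was lost without dasatinib 1x A (0.0811) or C (0.0739), by DESeq2 (0.0704) and by limma-voom (0.0501). Dasatinib 16x against DMSO 16x called 4 of 10, Spry1 and Spry4 higher and Spry2 and Etv5 lower, against 34.8% of all genes (17.9% higher and 16.9% lower). Spry1 was there at 0.40 ± 0.08 (adjusted p = 0.00179), under all 16 other settings. Since each DMSO library enters both of its comparisons, with opposite sign, the calls that they share are not independent.

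Whether the step from 1x to 16x differed between dasatinib and DMSO was tested directly, in a contrast added after the values had been seen. It called 0 of 10, where 6.36% of all genes were called (5.06% higher and 1.29% lower), and DESeq2 also called 0. The share of all genes with an unadjusted p below 0.05 was not counted. Unadjusted p-values lay below 0.05 for 2 genes, Spry4 (0.53 ± 0.16, adjusted p = 0.0781) and Spry2 (-0.42 ± 0.15, adjusted p = 0.123), where a positive value means a higher step change under dasatinib. Spry4 was called without dasatinib 16x B (0.61, adjusted p = 0.00618) and without the filter on low counts (0.0324).

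Levels of the 10 genes were also compared with each other over the libraries, as a description. Over the 10 libraries, which come from 1 line, log2 levels of Dusp4 and Egr1 had a Pearson r of 0.85 (Spearman 0.77), and Spry2 and Etv5 had 0.81 (0.81). Spry1 and Spred2 ran in opposite directions (-0.88, Spearman -0.87), and the same libraries gave their calls at dasatinib 16x. The pair Spry2 and Spry4 had a Pearson r of -0.81 but a Spearman value of -0.21. Against Dusp6, the other 9 genes ranged from -0.50 (Spry4) to 0.56 (Dusp5 and Spry2). Among 8483 other genes of at least 5 CPM, the 5 most like Dusp6 in pattern were Twistnb (Pearson r 0.95), Ccnc (0.94), Fubp3 (0.94), Acsl4 (0.93) and Vps35 (0.93). Twistnb spanned only 60.2 to 69.3 CPM, a log2 range of 0.20, and Ccnc, Acsl4 and Vps35 had ranges of 0.23, 0.17 and 0.10. Fubp3 spanned 43 to 78 CPM, a log2 range of 0.86. Since the range of Dusp6 was itself 0.21, all 5 likenesses rest on small differences in Dusp6. By Spearman value Vps35 (0.81) dropped to rank 78.

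Genes of the pathway around the 10 were read from lists. In the RAS to ERK cascade, 24 genes from adaptors to kinases downstream of ERK were tested. Dasatinib 1x against drug-free called 0 of them. Over the 21 other settings that count ran from 0 to 9, and the count at 16x from 1 to 12. The calls over all genes moved too, from 15 to 4307 at 1x and from 979 to 4673 at 16x. The highest came with the mean of the DMSO lines as reference. Dasatinib 16x called 2 higher (Gab2 and Mknk1) and 2 lower (Gab1 and Rasgrp2), with a list median of 0.02. These 4 of 24 stand beside 15.4% of all genes called in that comparison (7.39% higher and 8.03% lower), against 1.69% at 1x. The count of 4 was 2 when dasatinib 16x C was left out and 5 when DMSO 16x was, and in the latter case dasatinib 1x called 2 of the 24. Calls over all genes at 16x went from 2003 to 987 and 2809 with these omissions. At 1x they went from 220 to 539 without DMSO 16x. Mknk1, a kinase that ERK activates, rose by 0.31 ± 0.05 (adjusted p = 0.00464), from 46.9 ± 1.65 CPM (SD, n = 2) in the parental line and 46.6 and 51.8 in DMSO 1x and 16x to 59.6 ± 2.79 (n = 3). Gab1, an adaptor of growth factor receptors, measured 4.29 ± 0.387 CPM in parental, 5.63 and 7.23 in DMSO and 0.304 ± 0.444 at dasatinib 16x, where it fell by 4.10 ± 0.82 on the log2 scale (adjusted p = 0.0124). The dasatinib 16x libraries ran from 0 to 0.813 CPM, and 1 of them set the size of this change, which was -6.70 without dasatinib 16x A. The call was lost with a replicate block (adjusted p = 0.0563) and with only the libraries of the 2 classes (0.0504). Gab1 was at 2.46 ± 0.461 CPM in dasatinib 1x.
Of the 24 cascade genes, 5 were called higher and 4 lower in DMSO 16x against parental, where 30.1% of all genes were called (14.6% higher and 15.5% lower). Rps6ka2, an ERK-activated kinase of the RSK family, measured 9.38 ± 0.0367 CPM in the parental line, 5.99 in DMSO 1x and 0.91 in DMSO 16x, where it fell by 3.36 ± 0.18 on the log2 scale (adjusted p = 8.02e-08). Rasgrp1, an exchange factor that loads RAS, fell by 2.42 ± 0.34 (5.75 ± 0.523 to 1.07 CPM, adjusted p = 0.00015). Ptpn11, the phosphatase SHP2, fell by 0.58 ± 0.05 (adjusted p = 2.57e-06). It lies on chromosome 5, whose median was -0.47.

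Of 13 tested inhibitors of RAS, dasatinib 1x against drug-free called 0 and dasatinib 16x called 2 (Dok3 and Lztr1, both higher; 15.4% of all genes were called), a count that ranged from 0 to 4 on leaving out single libraries. It was 0 without DMSO 1x, without any 1 of the dasatinib 1x libraries, and without dasatinib 16x A or B. Without DMSO 16x it was 4, and dasatinib 1x then called 1. Over all 21 other settings the 16x count reached 6 and the 1x count 5. Calls over all genes moved as well on leaving out single libraries, at 16x from 987 to 2809 and at 1x from 15 to 539. In DMSO 16x against parental 3 were higher and 4 lower, 7 in all beside 30.1% of all genes. Without dasatinib 16x B the 7 became 11, and more of all genes were called as well. In DMSO 16x against parental, Rasa1, a RAS GTPase-activating protein, fell by 0.74 ± 0.06 (136 ± 0.449 to 81.4 CPM, adjusted p = 1.16e-06). Nf1, which encodes the neurofibromin that Spred proteins bind, rose by 0.49 ± 0.10 (35.5 ± 0.498 to 50 CPM, adjusted p = 0.00207).

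Among 11 other tested MAP kinase phosphatase, Sprouty and Spred genes, dasatinib 16x called 2 higher and 3 lower, beside 15.4% of all genes. The 5 calls became 1 on leaving out dasatinib 16x A, and 2 on leaving out C of that group or DMSO 1x. Calls over all genes fell from 2003 to 1038, 987 and 1302 with these omissions. Over all 21 other settings the 16x count ran from 1 to 7 and the 1x count from 0 to 5. Dusp3, a phosphatase of ERK and JNK, rose by 0.40 ± 0.04 (adjusted p = 0.000699), from 29.6 ± 0.155 CPM in parental, 32.0 in DMSO 1x and 30.3 in DMSO 16x to 40.2 ± 0.873. It was at 36.6 ± 1.25 CPM in dasatinib 1x, a log2 change of 0.27 ± 0.04 (adjusted p = 0.0243), a call lost without dasatinib 1x A (0.125), B (0.123) or C (0.0579). At 1x, where 1.69% of all genes were called, the list had 2 calls, Dusp3 and Dusp8, the latter below 1 CPM in every group. Dusp8 was lost on leaving out DMSO 1x (adjusted p = 0.0951), dasatinib 1x A (0.134), B (0.102) or C (0.101), or parental B (0.0521).
In DMSO 16x, Dusp7, a close relative of Dusp6, rose by 0.56 ± 0.06 (183 ± 5.43 to 270 CPM, adjusted p = 1.03e-05). Dusp10, a phosphatase of JNK and p38, rose by 1.43 ± 0.26 (2.40 ± 0.22 to 6.51 CPM, adjusted p = 0.000961).

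Of 12 ETS, CIC and ternary complex factors, which read or gate ERK output at promoters, dasatinib 1x against drug-free called 0 and 16x called 2 higher and 4 lower, beside 1.69% and 15.4% of all genes. The 6 calls became 1 on leaving out dasatinib 16x A, and 3 on leaving out B or C of that group or DMSO 1x. Calls over all genes fell from 2003 to 1038, 1447, 987 and 1302 with these omissions. Dasatinib 1x called 1 when DMSO 16x was left out, beside 539 of all genes. Over all 21 other settings the 1x count ran from 0 to 7 and the 16x count from 1 to 10. Ets1, an ETS factor of lymphoid cells, at 16x fell by 0.64 ± 0.11 (adjusted p = 0.00546), from 83.0 ± 0.591 CPM in parental and 88.7 and 71.9 in DMSO to 52.2 ± 8.93, under all 21 other settings. In DMSO 16x against parental 3 of the 12 rose and 3 fell, beside 30.1% of all genes called. Srf rose by 0.44 ± 0.05 (77.3 ± 3.04 to 105 CPM, adjusted p = 4.03e-05) and Elk1, its ERK-activated partner, fell by 1.17 ± 0.17 (13.1 ± 0.693 to 5.81 CPM, adjusted p = 0.000182).

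Of 33 other immediate early and ERK-induced genes, dasatinib 1x called 1 higher (Emp1, 0.86 ± 0.16, adjusted p = 0.0313). Dasatinib 16x called 7 higher and 4 lower, with a list median of 0.20 against -0.005 for all genes. Of all genes, 1.69% were called at 1x and 15.4% at 16x. Over the 21 other settings the count of the list ran from 0 to 14 at 1x and from 4 to 18 at 16x. The Emp1 call at 1x was lost on leaving out DMSO 1x (adjusted p = 0.0977), dasatinib 1x A (0.0682), B (0.151) or C (0.144), or parental A (0.0571) or B (0.0523). The 11 calls at 16x became 4 without dasatinib 16x A, 7 without DMSO 1x and 18 without DMSO 16x. Calls over all genes went from 2003 to 1038, 1302 and 2809 in that order. Emp1, a membrane protein gene, rose at 16x by 0.90 ± 0.16 (adjusted p = 0.00572), from 6.37 ± 0.0475 CPM in parental and 7.30 and 8.81 in DMSO to 13.5 ± 2.07. Zfp36, which encodes a protein that destabilises AU-rich transcripts, fell by 0.53 ± 0.06 (adjusted p = 0.000761), from 31.6 ± 0.501 CPM in parental and 33.4 and 34.1 in DMSO to 22.7 ± 1.60. Both calls at 16x held under all 21 other settings. So did that of Klf4, which fell by 1.80 ± 0.30 (adjusted p = 0.00468) from a parental level of only 1.27 ± 0.135 CPM.
In DMSO 16x against parental, 9 of the 33 rose and 5 fell, beside 30.1% of all genes called. The list median was 0.26 there, against -0.01 for all genes. This list shares Fos, Fosb, Jun, Junb and Ier2 with the handling-induced genes. Ccnd1, the cyclin D1 gene, rose by 3.04 ± 0.36 (9.70 ± 0.453 CPM in parental, 31.8 in DMSO 1x and 79.8 in DMSO 16x, adjusted p = 0.00162). It was at 3.42 ± 0.224 CPM in dasatinib 1x and 15.7 ± 5.77 in dasatinib 16x. Ccnd2, the cyclin D2 gene, rose by 0.87 ± 0.05 (504 ± 6.79 to 921 CPM, adjusted p = 2.49e-07). Lif fell by 2.66 ± 0.33 (5.27 ± 0.351 to 0.83 CPM, adjusted p = 5.12e-05).

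**Figure D4:**
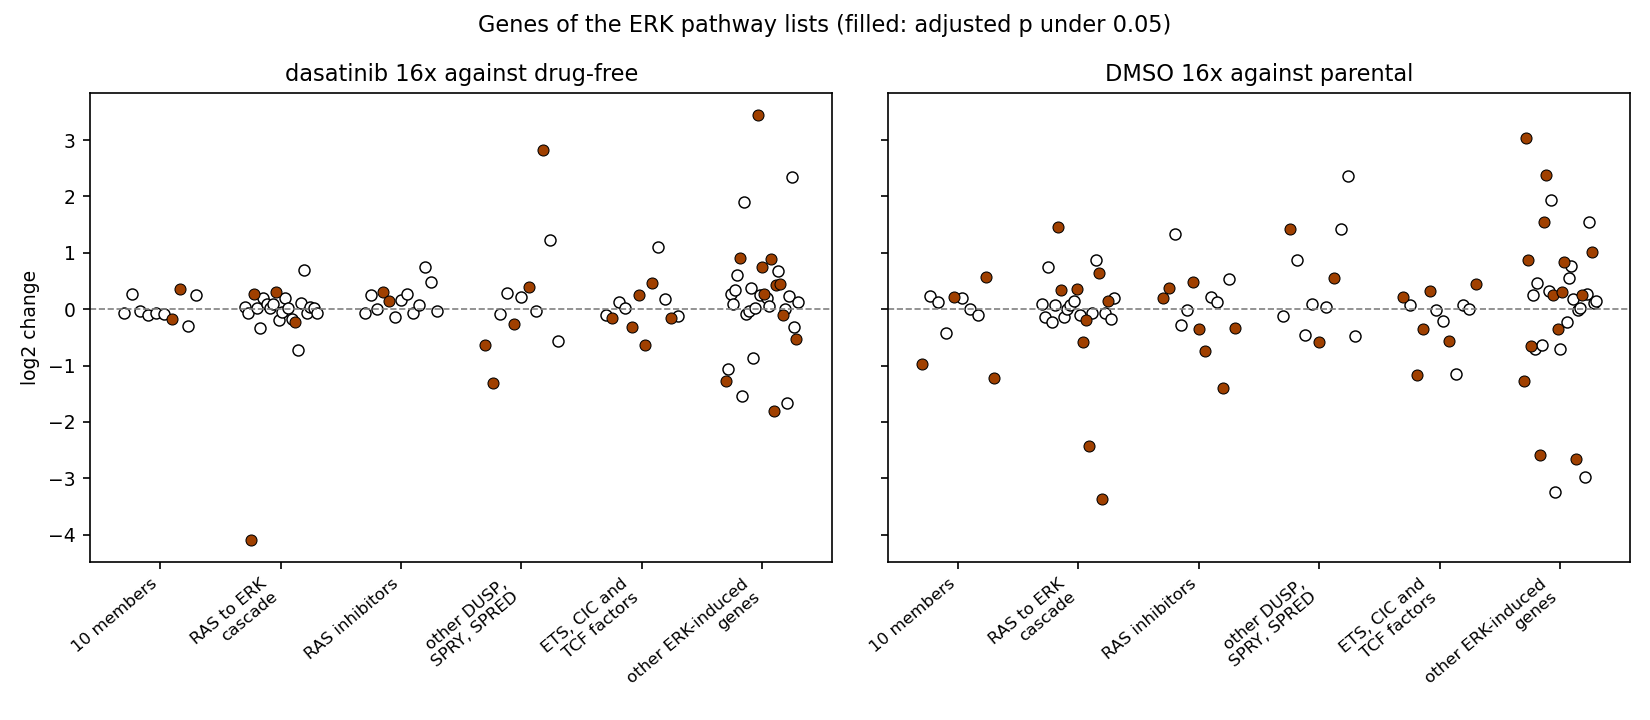
Log2 change (vertical axis) of each tested gene of the 10 and of the pathway lists (horizontal axis) for dasatinib 16x against drug-free (left) and DMSO 16x against parental (right); filled points are called at an adjusted p below 0.05. In both panels each list holds genes above and below 0, from Gab1 at -4.10 to Ier3 (below 1 CPM in every group) at 3.45 on the left, and the 10 genes lie between -0.30 and 0.35 on the left.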

How the data were processed

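The files held counts per gene for 10 libraries, which the authors deposited as whole numbers. Per the submitters' processing notes, CASAVA 1.7.0, Trimmomatic 0.33, TopHat2 2.0.12, BWA 0.7.10, SAMtools and HTSeq 0.6.1 were used with mm9. No strand setting is stated there, so genes that overlap or lie antisense to each other may share reads. The deposited counts totalled 29049760 to 45813092 per library, and counts of replicates differed by more than sampling noise. The parental pair differed the least.

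From them, edgeR 4.0.16 in R 4.3.3 was run on genes passing filterByExpr (minimum count 10, by the 5 groups), with TMM scaling, robust quasi-likelihood tests and Benjamini-Hochberg adjustment over all 12993 genes at 0.05. Comparisons with the drug-free class, and of 16x with 1x, came from a fit of 3 classes (7 residual degrees of freedom, biological coefficient of variation 15.7%), and those with a single DMSO library from a fit of 5 groups (5 degrees of freedom, 7.29%). Standard errors and 95% intervals came from the F statistic. Log2 CPM for likeness used a prior count of 2. The script was tested on simulated data.

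The 10 genes, the lists and the comparisons were chosen with earlier results of these data known. The naming rule took all 10 genes, called genes of the lists (those described were picked after their values were seen), and the 5 genes most like Dusp6 by Pearson r. Other settings were DESeq2 1.42.0, voom of limma 3.58.1, RLE scaling, all genes with a count, no robust estimation, no chromosome 18 genes, a replicate block, other reference libraries and leaving out each library. A filter by the 3 classes and the contrast of step changes were added after seeing the data. Chromosomes came from a RefSeq table (GRCm38.p6), matched by symbol or synonym for 11888 genes, and exon lengths from GENCODE vM21 (GRCm38).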

Additional observations from a re-analysis of the deposited data

Results flagged for a closer look

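For 2 of the 10 genes, 1 of the 4 drug-free libraries stood apart from the rest. The gap to its nearest neighbour was divided by the whole range of the 4 libraries and set against Dixon's 95% critical value. For Dusp5 the library was DMSO 16x, at 50.1 CPM against 42.0 to 43.3 in the other drug-free libraries (ratio 0.845). For Spred2 it was DMSO 1x, at 76.2 CPM against 71.7 to 72.3 (ratio 0.854), and the call of Spred2 at dasatinib 16x was lost without that library (adjusted p = 0.0611 in edgeR's quasi-likelihood test). All 10 genes were examined in this way. How many of all tested genes would be marked was not counted, so the 2 of 10 have no background. Chance alone marks about 5% of groups whose libraries are all alike. These 4 libraries join the parental line with the DMSO lines, so that rate need not hold here.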

How the results depend on the processing

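Under the other settings, 1394 values of the 10 genes were recomputed: 1333 kept their side of the threshold and, where called, their direction, 29 lost a call, 32 gained one, and none of the called values reversed. With a replicate block by library letter, dasatinib 16x against drug-free called 1 of the 10 genes instead of 2 (1313 of all genes instead of 2003), and dasatinib 1x against drug-free and 16x against 1x still called 0 (55 instead of 220, and 407 instead of 247). Deviations of libraries that share a letter correlated at 0.03 to 0.05, each library best with its own letter. Those of libraries with different letters correlated at -0.03 to 0. Values this small do not settle whether the letters pair the samples. With only the libraries of the 2 classes, 16x against drug-free called 1 (979 of all genes), and 16x against 1x called 0 but 1222 of all genes. The mean of the DMSO lines as reference called 5 in dasatinib 1x and 5 in dasatinib 16x (4307 and 4673 of all genes), and the parental libraries alone called 0 and 2 (733 and 3282). DESeq2 called 1 in dasatinib 1x against drug-free and 2 in DMSO 1x against parental, and 892 and 794 of all genes in dasatinib 1x against drug-free and 16x against 1x. The fit of 5 groups called 0 for 16x against 1x, but 1686 of all genes. Without a filter, DMSO 1x against parental called 2 and the contrast of step changes 1. For dasatinib 1x against DMSO 1x, limma-voom called 1, and limma-voom called 144 of all genes in dasatinib 1x against drug-free. Without the genes of chromosome 18, which holds Spry4 and Egr1, dasatinib 1x against DMSO 1x called 1, since Spry4 was not tested and Spred2 lost its call (adjusted p = 0.0586), and DMSO 1x against parental called 0, since Spry4 was not tested. Leaving out each library in turn gave 0 to 1 calls for dasatinib 1x against drug-free, 1 to 2 for 16x against drug-free, 0 for 16x against 1x, 1 to 4 for dasatinib 1x against DMSO 1x, 4 to 5 for 16x against DMSO 16x, 0 to 3 for DMSO 1x against parental, 2 to 6 for DMSO 16x against parental, and 0 to 1 for the step changes. The counts over all genes moved as well. Leaving out each library, they ran from 15 to 539 for dasatinib 1x against drug-free and from 987 to 2809 for 16x. For 16x against 1x they ran from 43 to 957. Without dasatinib 16x A, DMSO 16x against parental called 4587 of all genes instead of 3912, and DMSO 1x against parental 1375 instead of 787. Both of these fell on leaving out either parental library. The causes were not tested where none is named. RLE scaling and the filter by 3 classes changed none of the counts of the 10 genes. Those over all genes did move, in dasatinib 1x against drug-free from 220 to 225 and 241. The DMSO groups hold 1 library each, so their spread cannot be seen. Standard errors did not follow the counts: in the DMSO 16x comparisons Spry2 had 0.10 and 0.11 and Dusp5, at higher counts, 0.23 and 0.24 on the log2 scale.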
